A study of Homo sapiens with 12 samples.

Results

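The 10 genes described here encode the transcription factors and partner proteins that are best known for driving red blood cell development, namely GATA1, GATA2, TAL1, KLF1, LMO2, LDB1, NFE2, ZFPM1, GFI1B and BCL11A. They were taken by symbol from the 60609 genes listed in the count files, with no threshold on measured values, and all 10 were found. RNA-seq had been performed on K562 cells, an established human leukemia line of myeloid origin with erythroid character. The cells received for 48 h either the solvent DMSO (3 libraries) or 10 μM FT671 (3 libraries), a compound that blocks the deubiquitinase USP7. Both groups come from this single cell line, and only 1 dose and 1 time were measured. The libraries of a group came from separate experiments according to the study, and p-values measure the spread between them.

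GATA1 is the master regulator of erythroid and megakaryocytic cells and binds short GATA words in DNA. It works together with its cofactor FOG1, encoded by ZFPM1, and in a DNA-bound complex in which TAL1 pairs with an E protein while the bridging protein LMO2 and the looping protein LDB1 hold the parts together. GATA2 acts earlier, in stem and progenitor cells, and is replaced by GATA1 at shared sites as erythroid cells mature, a step known as the GATA switch. KLF1, NFE2, GFI1B and BCL11A act on globin and other erythroid genes, the first pair mainly as activators and the last pair as repressors. USP7 has been described as a deubiquitinase of the GATA1 protein, and RNA counts do not report on protein levels.

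After FT671, 6 of the 9 factors that could be tested were downregulated and 1 was upregulated at an adjusted p of 0.05 (edgeR's quasi-likelihood test, Benjamini-Hochberg adjustment over the 13895 genes tested). Over all tested genes, 26.5% were called lower and 23.6% higher at this threshold. GFI1B fell most, to 18.3% of its DMSO level, followed by ZFPM1 (43.6%), TAL1 (52.0%), KLF1 (56.7%), NFE2 (69.8%) and GATA1 (81.7%). LMO2 rose 1.30-fold, whereas GATA2 and LDB1 did not pass the threshold. BCL11A stayed under the detection floor and was not tested. The median log2 fold change of the 9 tested factors was −0.52, compared with −0.01 over all tested genes. At the threshold of the study's methods, an adjusted p of 1e-05, GFI1B, TAL1 and ZFPM1 were lower, where 4.13% of all tested genes were called lower and 1.79% higher (5.92% in either direction). The libraries of the 2 groups did not overlap for 6 factors that were lower and 2 that were higher, compared with 30.3% and 26.8% of all tested genes, and they overlapped for LDB1.

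**Figure D1:**
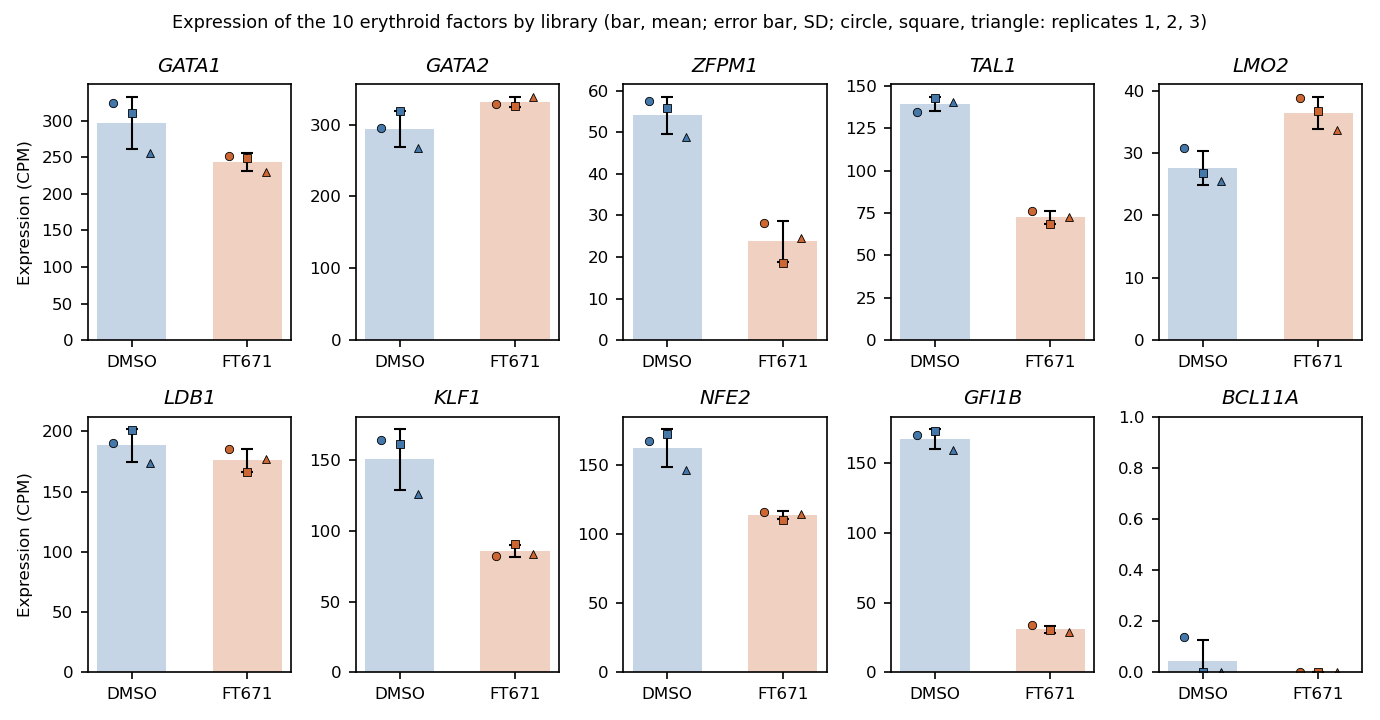
Expression of each of the 10 factors in the 3 DMSO (blue) and 3 FT671 (orange) libraries, in CPM (counts scaled to library size) from 0 on each vertical axis; bars give the mean, error bars the SD, and circles, squares and triangles replicates 1, 2 and 3. The FT671 points of GFI1B, ZFPM1, TAL1, KLF1, NFE2 and GATA1 all lie below the DMSO points, and those of LMO2 and GATA2 all lie above them.

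Total counts ranged from 4555220 to 14250500 per library, and expression is given as CPM on TMM-scaled library sizes. A total of 3 counts, taken as the detection floor, corresponded to between 0.211 and 0.659 CPM, and this floor covers counting error only. DMSO replicate 3 stood apart from the other DMSO libraries, since chi-square divided by its degrees of freedom was 7.55 and 8.73 against them and 2.94 between DMSO replicates 1 and 2. It held the lowest DMSO value for 8 of the 9 tested factors. Without it, 7 factors were lower and 1 was higher at 0.05, the addition being LDB1. Erythroid marker genes summed to between 1004 and 1088 CPM in every library. This sum hides changes in both directions and includes GYPC with a mean of 357 CPM in DMSO. Of the 9 tested erythroid markers, 4 were higher and 3 lower (44.4% and 33.3%, against 23.6% and 26.5% of all tested genes). Megakaryocyte markers summed to 31.8 to 35.98 CPM with GP1BB, GP9, PF4 and SELP at 0 counts throughout, and monocyte and granulocyte markers to 64.5 to 83.3 CPM with ELANE, CTSG, S100A8 and S100A9 at 0. The latter sum was mostly LYZ, which rose from 52.7 to 73.8 CPM. Lymphoid markers summed to 18.7 to 33.3 CPM, mostly CD3D, with CD2, MS4A1 and IL7R at 0. The part of these genes in the changes below was not tested. In bulk RNA, fewer cells that express a gene and less RNA of it per cell cannot be told apart.

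GATA1 (ENSG00000102145, chromosome X from 48786540 to 48794311 in hg38, plus strand) had 324, 311 and 256 CPM in DMSO replicates 1, 2 and 3 and 252, 248 and 229.8 CPM in FT671 replicates 1, 2 and 3. The lowest DMSO library and the highest FT671 library lay only a few CPM apart, and the groups did not overlap. The mean fell from 297 ± 35.9 to 243.5 ± 12.0 CPM (SD, n = 3 each), for a log2 fold change of −0.29 with an SE of 0.0876 (edgeR, adjusted p = 0.0128). This call was lost without DMSO replicate 1 (log2 fold change −0.23, adjusted p = 0.0745 from edgeR) and without FT671 replicate 3 (−0.25, adjusted p = 0.0798 from edgeR).

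GATA2 (ENSG00000179348, chromosome 3 from 128479427 to 128493201, minus strand) was measured at 295, 319 and 267 CPM in DMSO and at 328, 325 and 339 CPM after FT671. All FT671 libraries were above all DMSO libraries, by a small margin. Its log2 fold change of 0.17 (standard error 0.0752, 95% interval 0.01 to 0.33) had an adjusted p of 0.0741 from edgeR and did not pass 0.05. With the gene length or the GC content correction the gene passed as higher (0.26 in both), as it did without DMSO replicate 2 (0.24). GATA2 overlaps the lncRNA gene GATA2-AS1 on the opposite strand over 3990 bases. GATA2-AS1 went the other way and fell from 37.3 to 21.4 CPM (log2 fold change −0.85, adjusted p = 0.00027 from edgeR). Since the strand setting of the counting is not given in the sources used here, reads in the shared bases cannot be assigned with certainty.

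ZFPM1 (ENSG00000179588, chromosome 16 from 88453280 to 88537031, plus strand), which encodes the GATA1 cofactor FOG1, had 57.5, 55.8 and 49.0 CPM in DMSO. After FT671 it had 28.2, 18.6 and 24.5 CPM, so that every treated library was well below every control. The log2 fold change was −1.20 with an SE of 0.131 (edgeR, adjusted p = 5.66e-06). The antisense gene ZFPM1-AS1 within it had between 0 and 4 counts per library.

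TAL1 (ENSG00000162367, chromosome 1 from 47216290 to 47232225, minus strand), the basic helix-loop-helix factor of the complex, had 135, 143 and 141 CPM in DMSO and 76.4, 68.7 and 72.7 CPM after FT671. Replicates agreed closely, with SDs of 4.17 and 3.83 CPM, and the drop was far larger than their spread. Its log2 fold change was −0.94 with an SE of 0.0765 (edgeR, adjusted p = 3.98e-07). An unnamed lncRNA gene on the opposite strand, ENSG00000226252, lies within TAL1 over 4954 bases and had a log2 fold change of −0.01 (adjusted p = 0.942 from edgeR).

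LMO2 (ENSG00000135363, chromosome 11 from 33858576 to 33892076, minus strand), the LIM-only bridging protein, had 30.7, 26.7 and 25.5 CPM in DMSO and 38.9, 36.8 and 33.7 CPM after FT671. The groups did not overlap, and the mean rose from 27.7 ± 2.74 to 36.5 ± 2.60 CPM (SD, n = 3 each). The log2 fold change was 0.37 with an SE of 0.111 (edgeR, adjusted p = 0.0120). The call was lost when all libraries were thinned to the smallest total, an alternative added after the data were seen (log2 fold change 0.33, adjusted p = 0.0725 from edgeR).

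LDB1 (ENSG00000198728, chromosome 10 from 102106489 to 102120368, minus strand), which joins distant regulatory elements to promoters, had 189.9, 201 and 174 CPM in DMSO and 185, 166 and 177 CPM after FT671. The groups overlapped, and the log2 fold change was −0.10 with a 95% interval of −0.27 to 0.06 (adjusted p = 0.292 from edgeR). It passed as lower only without DMSO replicate 3 (log2 fold change −0.16, adjusted p = 0.0365 from edgeR) among the alternatives run. Of TAL1, LMO2 and LDB1, which share the complex, 1 thus fell, 1 rose and 1 did not pass the test.

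KLF1 (ENSG00000105610, chromosome 19 from 12884422 to 12887201, minus strand) encodes the zinc finger activator of the adult beta-globin gene. It had 165, 161 and 126 CPM in DMSO and 82.6, 90.9 and 84.0 CPM after FT671. Even DMSO replicate 3, the lowest control, was above all treated libraries. The log2 fold change was −0.82 with an SE of 0.0995 (edgeR, adjusted p = 1.47e-05), and it was −0.93 without DMSO replicate 3.

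NFE2 (ENSG00000123405, chromosome 12 from 54292111 to 54301015, minus strand) encodes the larger subunit of the NF-E2 heterodimer. Its expression was 168, 172 and 146 CPM in DMSO and 116, 110.2 and 115 CPM after FT671, without overlap between the groups. This gave a log2 fold change of −0.52 with an SE of 0.0796 (edgeR, adjusted p = 1.13e-04).

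GFI1B (ENSG00000165702, chromosome 9 from 132944000 to 132991687, plus strand) encodes a zinc finger repressor that recruits the demethylase LSD1 and is required for erythroid and megakaryocytic development. It had 169.8, 173 and 159.5 CPM in DMSO, from 2452, 1888 and 863 counts. In FT671 replicates 1, 2 and 3 only 33.8, 30.5 and 28.7 CPM remained, from 152, 169 and 321 counts. The log2 fold change was −2.45 with an SE of 0.0880 and a 95% interval of −2.64 to −2.26 (edgeR, adjusted p = 8.85e-10). Ordered by log2 fold change from the most negative, GFI1B was number 28 of the 13895 genes tested. TSC1, which overlaps GFI1B on the opposite strand over 2875 bases, had a log2 fold change of −0.30 (39.3 CPM in DMSO and 31.9 CPM after FT671, adjusted p = 0.0273 from edgeR).

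BCL11A (ENSG00000119866, chromosome 2 from 60450520 to 60554467, minus strand), a repressor of the fetal globin genes, had 2 counts in DMSO replicate 1 and 0 in every other library. All libraries were thus below the floor of 3 counts, and no fold change is given. Its paralog BCL11B had 0 counts in all 6 libraries. A difference in BCL11A was not detectable at this depth.

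**Figure D2:**
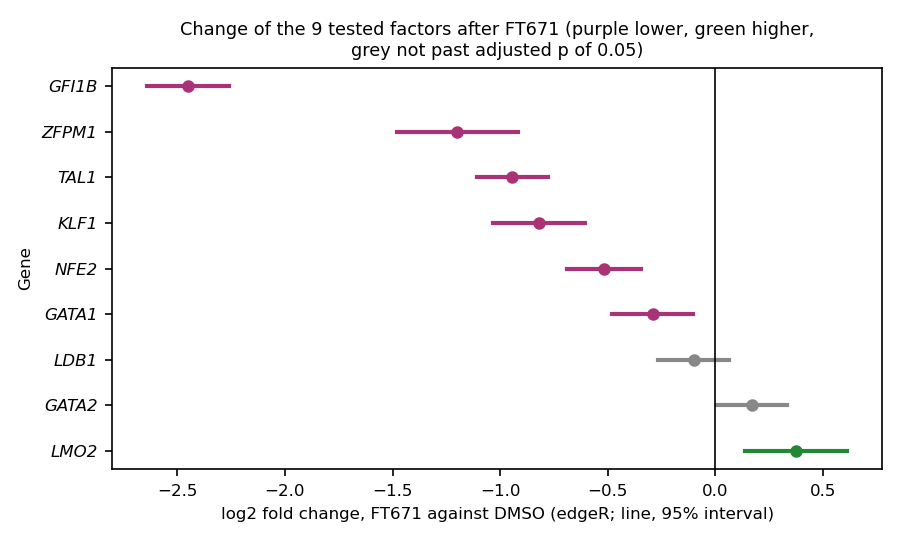
Log2 fold change of the 9 tested factors after FT671 against DMSO (horizontal axis, edgeR), with a line for the 95% interval; purple marks lower, green higher and grey not past an adjusted p of 0.05. The estimates run from −2.45 for GFI1B to 0.37 for LMO2, and the interval of LDB1 spans 0.

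The nearest tested gene on each side of each factor was examined as well, a rule added after the values of the factors had been seen. Of these 18 neighbours, 4 were lower, 3 were higher and 11 did not pass 0.05. Both shares were under those of all tested genes, of which 26.5% were lower and 23.6% higher. Around GFI1B, SPACA9 (53.8 kb away) and GTF3C5 (39.0 kb away) had log2 fold changes of −0.39 and −0.13, neither past 0.05 (adjusted p = 0.209 and 0.206 from edgeR). HDAC6, next to GATA1, fell by 0.38 on the log2 scale, and ZC3H18, next to ZFPM1, by 0.28. GCDH, 3.96 kb from KLF1, and HNRNPA1, 5.02 kb from NFE2, rose by 0.76 and 0.69. On its other side each of these factors had a nearer tested gene, which did not pass 0.05. These were the lncRNA gene ENSG00000267735, 0.334 kb from KLF1, and COPZ1, 0.187 kb from NFE2. Their log2 fold changes were −0.29 and −0.04 (adjusted p = 0.0581 and 0.646 from edgeR).

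Promoter sequences of the factors were examined for the short words that these proteins are known to bind. The RefSeq (GRCh38.p14) sequences used here covered 8 of the 10 genes with 15 transcription starts. The promoters of LMO2 and NFE2 were not analysed here. In the 250 bases before each start, both strands were searched for the GATA words, which are AGATAA or AGATAG as well as TGATAA or TGATAG. Such a word was found in the promoters of 3 of the 8 genes, namely GFI1B, KLF1 and TAL1, at 1 start each. It was present in 22.3% of all 35116 windows of this length and in 17.6% of the 9863 tested genes with an entry. All 3 genes fell after FT671, whereas GATA1 and ZFPM1, which fell too, had no such word in this window. The 3 windows are shown 5′ to 3′ on the strand of the gene with the GATA words, or their reverse complements, in capitals.
GFI1B (chr9:132978444-132978693, plus strand): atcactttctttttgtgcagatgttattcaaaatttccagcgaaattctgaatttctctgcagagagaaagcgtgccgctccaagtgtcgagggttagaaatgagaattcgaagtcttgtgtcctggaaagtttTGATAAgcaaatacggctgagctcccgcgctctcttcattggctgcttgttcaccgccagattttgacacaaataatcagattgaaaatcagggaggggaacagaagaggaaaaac
KLF1 (chr19:12887202-12887451, minus strand): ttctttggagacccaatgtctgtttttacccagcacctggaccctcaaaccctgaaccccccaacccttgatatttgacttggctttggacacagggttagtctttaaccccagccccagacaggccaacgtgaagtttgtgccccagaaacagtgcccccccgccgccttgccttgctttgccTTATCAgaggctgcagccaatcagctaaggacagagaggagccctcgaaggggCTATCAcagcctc
TAL1 (chr1:47232336-47232585, minus strand): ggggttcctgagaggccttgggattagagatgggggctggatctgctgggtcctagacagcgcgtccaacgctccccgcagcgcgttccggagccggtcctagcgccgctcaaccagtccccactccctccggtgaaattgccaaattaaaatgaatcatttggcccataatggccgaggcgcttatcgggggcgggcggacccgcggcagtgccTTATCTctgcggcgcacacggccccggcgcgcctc

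The GATA word of GFI1B began 116 bases before the start and that of TAL1 35 bases before it, while KLF1 had words at 66 and 13 bases. The GFI1B window was also the most AT-rich of the 3, with a GC content of 42.8% against 55.2% for KLF1 and 64.8% for TAL1. Of the other words searched, AAATC, the core bound by GFI proteins, was found among the 8 genes in GFI1B alone, compared with 26.6% of the tested genes. The E-box CANNTG, bound by TAL1 with its E protein partners, was present in 5 of the 8 genes (60.0% of tested genes). The GC-rich word CCNCNCCC, of the kind bound by KLF1, was present in 7 of 8 (77.6%), and TGAGTCA, the core of the NF-E2 site, in 0 of 8 (3.76%). None of these words contains another. A word in such a window is a description of the sequence and not a binding site.

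To compare genes with each other, CPM were divided by the length of the canonical transcript, which gives CPM per kb. In DMSO, GATA1 had the highest level of the 10, with 203 ± 24.6 CPM per kb (SD, n = 3). NFE2, KLF1, GFI1B and GATA2 followed with means of 97.9, 93.4, 93.1 and 86.9 CPM per kb, and within this order the ranges of neighbouring genes overlapped. LDB1 (60.8 CPM per kb), TAL1 (30.1), LMO2 (13.3), ZFPM1 (9.96) and BCL11A came next, with no overlap between neighbours. After FT671 the order changed below GATA1, which remained first with 166 ± 8.23 CPM per kb (SD, n = 3). GATA2 was now second with 97.8 CPM per kb, apart from NFE2 at 68.6, and LDB1 (56.8) and KLF1 (53.2) overlapped. GFI1B had 17.2 CPM per kb, a level that overlapped with those of LMO2 (17.5) and TAL1 (15.6). ZFPM1 was the lowest detected factor in both groups, with 4.37 CPM per kb after FT671.

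Ratios of counts per kb between 2 genes in the same library do not depend on how libraries are scaled. The log2 ratio of GATA1 to GATA2 was 1.34, 1.17 and 1.15 in DMSO and 0.83, 0.82 and 0.65 after FT671. All treated libraries were lower, by 0.45 on average, and GATA1 remained the higher of the pair per kb in each library. This order depends on the division by length. In counts GATA2 exceeded GATA1 in FT671 replicates 1, 2 and 3 (1479, 1804 and 3792 against 1136, 1377 and 2571). The same held in DMSO replicates 2 and 3. The corresponding linear ratio was 2.33 in DMSO and 1.70 after FT671. The log2 ratio of GATA1 to its cofactor ZFPM1 was higher after FT671 by 0.92, and that of GATA1 to TAL1 by 0.66. For LMO2 to LDB1 the difference was 0.50. The ratio of NFE2 to BACH1, which competes with NF-E2 for its sites, was lower by 0.79. GFI1B and KDM1A, which encodes LSD1, were at nearly equal levels per kb in DMSO (log2 ratio −0.18), and the ratio was −2.44 after FT671. In each of the 6 ratios the groups did not overlap, with p = 0.1 in a two-sided exact permutation test, the smallest value that 3 libraries against 3 allow (0.1 after Benjamini-Hochberg adjustment over the 6 ratios). The ratio of KLF1 to BCL11A could not be formed.

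Proteins that work with the factors on DNA were examined next, beginning with the other parts of the TAL1 complex. Of 13 listed genes 11 were tested, and 3 were downregulated and 1 upregulated (median log2 fold change −0.15, and 0.004 after the gene length correction). The share called lower, 27.3%, was near the 26.5% of all tested genes. CBFA2T3, encoding the corepressor ETO2, fell from 251 ± 5.28 to 112 ± 2.79 CPM (SD, n = 3 each), and edgeR gave a log2 fold change of −1.16 (adjusted p = 3.90e-08). TCF4, an E protein gene, and SSBP2, whose product binds and stabilizes LDB1, fell by 0.81 and 0.65 on the log2 scale, and SSBP4 rose by 0.36. The E protein genes TCF3 and TCF12, partners of TAL1, did not pass the threshold (log2 fold changes −0.15 and 0.13), although TCF12 passed as higher after the gene length correction (0.34), and the value of TCF3 was then 0.00. Without DMSO replicate 3 the counts were 5 downregulated and 2 upregulated, with TCF3 (−0.20) and TCF12 (0.21) among them.

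GFI1B represses through LSD1 and CoREST, and 4 of the 10 genes listed for this complex were downregulated and 1 was upregulated. These shares were 40.0% and 10.0%, against 26.5% and 23.6% of all tested genes. HDAC1 and GSE1 fell by 0.53 and 0.52 on the log2 scale, and RCOR3 rose by 0.37. HDAC2 fell by 0.28, and this call was lost after the gene length correction (log2 fold change −0.06). KDM1A had a log2 fold change of −0.18 (326 CPM in DMSO and 288 CPM after FT671, adjusted p = 0.0348 from edgeR), and its call was lost under 10 of the 17 alternatives. In the NuRD complex, which FOG1 and BCL11A recruit, 4 of 12 genes were downregulated and 3 upregulated (33.3% and 25.0%). MBD3, encoding its methyl-CpG-binding-domain subunit, fell from 33.4 ± 3.08 to 10.5 ± 0.451 CPM (SD, n = 3 each), and edgeR gave a log2 fold change of −1.69 (adjusted p = 1.63e-07). GATAD2B and MTA1 fell by 0.77 and 0.44, while RBBP7, CHD3 and CDK2AP1 rose by 0.51, 0.50 and 0.40. These balances depended on the setting. After the gene length correction 2 CoREST genes were lower and 4 higher, and 3 NuRD genes were lower and 4 higher, with the NuRD median moving from −0.14 to 0.01. Without DMSO replicate 3, 5 CoREST genes and 6 NuRD genes were lower and 2 and 3 were higher. Among 7 coactivator genes, 4 (57.1%) were downregulated, including the acetyltransferase genes KAT2B, EP300 and CREBBP with log2 fold changes of −0.97, −0.65 and −0.52. SMARCA4 was the single one called higher (0.19), a call that 7 of the 17 alternatives did not keep. The gene length correction left 3 coactivator genes lower and 2 higher, and the median went from −0.26 to −0.07.

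NFE2 binds DNA only with a small MAF protein, and CNC and BACH proteins compete for the same partners. Of these 8 genes 5 were downregulated and 2 upregulated (62.5% and 25.0%, against 26.5% and 23.6% of all tested genes). MAFG fell from 118 ± 7.97 to 45.1 ± 0.675 CPM (SD, n = 3 each), and edgeR gave a log2 fold change of −1.39 (adjusted p = 4.65e-08), and MAFK fell by 1.18 on the log2 scale. MAFF, the least expressed of the 3 small MAF genes in DMSO, rose from 9.26 to 14.7 CPM (log2 fold change 0.65), without passing 0.05 after thinning. BACH2 fell by 1.08, and NFE2L1 and NFE2L2, paralogs of NFE2, fell by 0.56 and 0.38, the latter without passing 0.05 after thinning. BACH1 rose by 0.29 (adjusted p = 0.0155 from edgeR), a call that was lost without DMSO replicate 1 (log2 fold change 0.26), DMSO replicate 2 (0.23) or FT671 replicate 2 (0.22).

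Among 33 paralogs of the factors 17 were tested, of which 7 were downregulated and 2 upregulated. These shares were 41.2% and 11.8%, against 26.5% and 23.6% of all tested genes. GFI1, the paralog of GFI1B, was expressed at a much lower level and also fell, from 4.82 ± 0.613 to 1.54 ± 0.437 CPM (SD, n = 3 each; log2 fold change −1.59, adjusted p = 2.59e-04 from edgeR). ZFPM2, encoding FOG2, fell by 0.42 on the log2 scale, and LYL1, the close paralog of TAL1, had a log2 fold change of −0.23 (adjusted p = 0.0390 from edgeR) that did not pass under 8 of the 17 alternatives. KLF16 and KLF13 fell by 1.27 and 0.63. KLF11 and KLF6 rose by 0.45 and 0.26, and KLF6 was no longer called under 3 of the 17 alternatives. After the gene length correction 4 paralogs were higher and 7 lower. GATA3, GATA4 and GATA6 did not pass the filter on low counts.

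Of 16 other regulators of erythroid cells 10 were downregulated and 1 upregulated, with a median log2 fold change of −0.29. These shares were 62.5% and 6.25%, against 26.5% and 23.6% of all tested genes. After the gene length correction 6 were lower and 2 higher, with a median of −0.10, and the calls of IKZF1 (−0.08), FOXO3 (−0.06), NFIX (−0.12) and SOX6 (−0.21) were lost. ARID3A fell from 243 to 117 CPM (log2 fold change −1.06), and ZBTB7A, encoding the fetal globin repressor LRF, from 96.5 to 49.6 CPM (−0.96). E2F2 fell by 0.72. MYB and SOX6, which act on globin switching, fell by 0.35 and 0.43. STAT5A, which acts downstream of the erythropoietin receptor, rose from 439 ± 16.3 to 674 ± 22.3 CPM (SD, n = 3 each), and edgeR gave a log2 fold change of 0.62 (adjusted p = 5.40e-06). Of 15 regulators of other lineages only 6 were tested, with 4 downregulated and 1 upregulated (66.7% and 16.7%). SPI1, encoding PU.1, the myeloid antagonist of GATA1, fell from 137 to 86.5 CPM (log2 fold change −0.67), and CEBPB fell by 1.07. ETS1 fell by 1.34 from a low level, 3.78 to 1.43 CPM, with 6, 8 and 17 counts in FT671 replicates 1, 2 and 3. TCF7, a regulator of T cells, rose by 0.59. With at least 10 counts required in every library, 4 genes of this list were tested, with 2 lower and 1 higher. The median log2 fold change of the list was then −0.315, against −0.867 in the main fit. FLI1, the megakaryocytic ETS factor, had too few counts to be tested.

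Among 45 genes of the mature erythroid program, most of them known targets of GATA1 or KLF1, 40 were tested, and 14 were upregulated and 12 downregulated (median log2 fold change 0.02). Both shares were above those of all tested genes, of which 23.6% were higher and 26.5% lower. The balance depended on the setting. Across the alternatives 11 to 18 genes were called higher and 8 to 12 lower, with medians from −0.04 to 0.095. Hemoglobin genes were among the largest rises, with log2 fold changes of 1.79 for HBZ, 1.41 for HBG1, 1.22 for HBG2 and 2.11 for HBD, from means of 39.0, 36.9, 28.2 and 1.13 CPM in DMSO. HBG1 and HBG2, like HBA1 and HBA2 (1.23 and 2.67), are nearly identical copies, so that the split of reads within each pair is uncertain. In DMSO HBA1 had a mean of only 3.75 CPM. HBA2 had 5, 3 and 1 counts there (mean 0.27 CPM), around the detection floor. HBB had 0 counts in all 6 libraries. EPOR, which encodes the erythropoietin receptor, and ERMAP were among the genes that fell, with log2 fold changes of −1.21 and −1.06.

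A short list of progenitor genes that GATA1 is known to repress, or that recede as erythroid cells mature, was lower. Of 9 genes 8 were tested, and 7 were downregulated and 0 upregulated by edgeR. The share called lower was 87.5%, against 26.5% of all tested genes. Between 5 and 7 genes were called lower across the alternatives. MYB, LYL1 and MEIS1 in this list also belong to lists described above. KIT, the stem cell factor receptor gene, fell from 50.1 ± 6.77 to 17.6 ± 4.42 CPM (SD, n = 3 each; log2 fold change −1.44, adjusted p = 5.01e-06 from edgeR). The cyclin gene CCND2 and the growth regulator MYC were also lower, with log2 fold changes of −0.61 and −0.57. CD34 had 0 counts in all libraries.

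As a description, the genes with profiles nearest to those of 3 factors were listed, using the root mean square difference of centred log2 CPM over the 6 libraries among the 9194 other genes with a mean of at least 10 CPM. For GATA1 these were ACTR1B, MED16, PGLS, TIMM17B and RCC1L, with differences of 0.015 to 0.0391. GFI1B had more distant neighbours, namely SOGA1, GYG2, the mitochondrially encoded MT-CO3, SPC25 and WNT5B (0.14 to 0.166), with log2 fold changes between −2.73 and −2.22. For LMO2 they were PEPD, RHOT2, FADS2, TMEM161A and PFAS (0.0307 to 0.0477). USP7 itself, the target of the inhibitor, had lower RNA after FT671, with 119 ± 12.3 CPM in DMSO and 33.1 ± 3.38 CPM in the FT671 libraries (SD, n = 3 each), and edgeR gave a log2 fold change of −1.83 (adjusted p = 2.66e-08).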

How the data were processed

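RNA-seq counts of 3 DMSO and 3 FT671 libraries were analysed. The 6 ChIP-seq samples were not analysed here. The counts deposited by the authors are raw read counts per gene, collected by STAR (two-pass mode, hg38) from paired-end, ribosomal RNA-depleted libraries; the STAR version, annotation release and strand setting are not given in the sources used here. Of 60609 genes, 60295 were matched to GENCODE release 44. The 10 factors and the gene lists were chosen with earlier results of these data known.

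Genes were filtered with filterByExpr (13895 kept) and the treatment effect was fitted on the whole table with edgeR 4.0.16 (TMM, quasi-likelihood test, no covariates, Benjamini-Hochberg), in R 4.3.3. Standard errors are the log2 fold change divided by the square root of F. In each list other than those of cell type markers, up to 3 called genes per direction were named by size of change. They were required to have a mean of at least 1 CPM in one group. The factors, overlapping genes, USP7 and profile neighbours were named too. Other list genes, including the markers, were named after their values were seen. A gene that this rule names is not reported here. Alternatives were the replicate number as a block, DESeq2 1.42.0 size factors or Wald test, library totals, other count filters, loess corrections (span 0.3) for transcript length or GC content, each library left out, and thinning. Fits were tested on simulated data. Ratios used exact permutation tests (Python 3.11.15).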

Additional observations from a re-analysis of the deposited data

How the results depend on the processing

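Over 17 alternatives, no tested factor changed direction, and GFI1B, ZFPM1, TAL1, KLF1 and NFE2 were called lower in each. The log2 fold change ranged from −2.52 to −2.38 for GFI1B, −1.30 to −0.997 for ZFPM1, −0.98 to −0.79 for TAL1, −0.93 to −0.71 for KLF1, −0.60 to −0.44 for NFE2, −0.40 to −0.20 for GATA1, 0.10 to 0.27 for GATA2, 0.31 to 0.48 for LMO2 and −0.16 to −0.02 for LDB1. The number of factors called higher was 2 after the gene length or GC content correction, each with and without the block, and 0 after thinning, and between 1 and 2 with a library left out. At 1e-05, 5 factors passed with DESeq2's Wald test, without the filter on low counts, with the gene length correction (with or without the block) and with the GC content correction, and between 1 (without FT671 replicate 2 or 3) and 6 (without DMSO replicate 3) with a library left out. The causes of these shifts were not tested. The share of lower calls among all calls was 53.0%, and 46.3% with the gene length correction, 48.3% with the GC content correction and 56.9% with library totals.

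Deviations of same-numbered DMSO and FT671 libraries had Pearson's r of 0.115, −0.0605 and 0.14 over genes, and not every library correlated best with its own number (DMSO replicate 2 and FT671 replicate 1 had 0.125), so the numbers were not taken to pair the libraries. With the replicate block, 6 factors were lower, 1 was higher and 4 passed 1e-05, out of 7135 genes called against 6963 without it. The difference in the GATA1 to GATA2 log2 ratio was −0.455 with 3 libraries a group. Transcript length and a balanced block cancel in this difference, so changing them could not alter it. With a library left out it was −0.492 to −0.395. Depth limits BCL11A, which had 2 counts in all.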
